A study of Rattus norvegicus with 6 samples.

Results

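The genes of Wnt signalling that lie at the cell surface or report on the pathway were compared between cultured rat adipose-derived stem cells (ADSCs) and the same kind of cells driven towards adipocytes. The set held 51 of the 18166 genes measured. It was chosen with earlier results of these data known. Membership went by symbol: every gene named Wnt, Fzd, Sfrp or Dkk with a number, and Lrp5, Lrp6, Wif1, Frzb, Ctnnb1, Axin2, Tcf7, Tcf7l1, Tcf7l2, Lef1, Ror1, Ror2, Ryk, Nkd1 and Nkd2. By role these were 19 ligands, 9 frizzled receptors, 5 co-receptors or alternative receptors, 10 secreted inhibitors, 4 intracellular genes and 4 transcription factors, and each had 1 array feature. Fzd3 would fit the same rule by name and was not analysed here. All cells came from inguinal fat of female Wistar rats aged 2 weeks. The control group was 3 cultures of ADSCs grown in alpha-MEM with 10% fetal bovine serum, and the induced group was 3 cultures after 7 days of adipogenic induction. Their medium held insulin at 5 µg/ml, the glucocorticoid dexamethasone at 1 µM and the phosphodiesterase inhibitor IBMX (3-isobutyl-1-methylxanthine) at 0.5 mM, with serum raised to 20%. Effects of the inducers, of the serum and of adipocyte formation therefore cannot be told apart, and the sources used here give no culture time for the control cells. The labels call the cultures biological replicates without saying whether each came from its own animal, and the p-values measure only the spread between them.

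Wnt proteins are secreted, lipid-modified ligands. When one binds a frizzled receptor together with Lrp5 or Lrp6, a cytoplasmic complex that otherwise destroys beta-catenin (Ctnnb1) is held back, and beta-catenin joins the nuclear factors Tcf7, Tcf7l1, Tcf7l2 and Lef1 on target genes such as Axin2. Other receptors, among them Ror1, Ror2 and Ryk, carry signals that do not need beta-catenin, and secreted Sfrp, Dkk, Wif1 and Frzb proteins catch ligands or block Lrp5 and Lrp6. In fat tissue, beta-catenin signalling is known for holding precursor cells back from becoming adipocytes, with Wnt6, Wnt10a and Wnt10b as the ligands usually named.

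Values are log2 RMA signals from 1-colour arrays, so a difference of 1 is a 2-fold change in signal, and all differences are induced minus control. RMA makes no detection call and evens out the arrays' distributions, and the features of different genes differ in brightness, so each gene was compared only with itself across the 6 arrays. Array medians lay between 5.64 and 5.73. The adipocyte markers separated the groups as labelled, since all 10 measured markers were higher on every induced array than on every control array, with a list mean of 6.79 to 8.27 in control and 10.49 to 11.47 in induced cells. Among all genes 12% lay wholly higher. At an adjusted p under 0.05 in limma 4 of the 10 were called (Cidec, Lep, Plin1 and Retn), where 0.479% of all genes were called higher. Fabp4 at 4.25 (adjusted p = 0.0507) and Adipoq at 3.93 (adjusted p = 0.0866) were among those not called. A gene without a call is thus not shown to be unchanged. Control replicate 1 carried the highest adipocyte marker mean of the control arrays (8.27, with 6.93 and 6.79 on the others). Induced replicate 3 stood apart from the other induced arrays: 8.40% and 8.62% of genes were over 2-fold apart from induced replicates 1 and 2, which differed from each other by that much for 0.132% of genes. On that array the adipocyte marker mean was highest (11.47) and the mean of 10 stromal progenitor markers lowest (8.82, where induced replicates 1 and 2 had 9.89 and 9.95 and control arrays 10.19 to 10.35). Ly6al, a surface marker of such precursors, read 2.71 to 2.95 on all arrays. The other 9 stromal markers had differences from -1.31 to -0.29, with 0 of 10 called. Thy1 came closest (-0.97, adjusted p = 0.0507 in limma), and without induced replicate 3 it was called lower (-1.01, adjusted p = 0.0307). It was also called lower with arrays weighted by quality and without both replicate 3 arrays (adjusted p = 0.0189 and 0.0298). No other stromal marker was called in these fits.

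Of 11 macrophage and leukocyte markers 0 were called, with list means of 5.68 to 6.83 in control and 6.03 to 7.44 in induced cells. Several were bright on some arrays, with Cd14 at 9.06 to 10.01, Cd68 at 5.96 to 9.45 and Mrc1 at 5.10 to 9.04. Others were dim. The leukocyte gene Ptprc read 4.04 to 5.64, the macrophage gene Adgre1 4.80 to 6.58 and the T cell marker Cd3e 4.52 to 4.79. Estimates were positive for 8 of the 11 and negative for 3, among them Ptprc (-0.34) and Adgre1 (-0.43). The complement gene C1qb, made by macrophages, read 5.09, 4.98 and 4.96 in control cells, then 8.17, 7.60 and 4.92 in induced cells (replicates 1 to 3). Without induced replicate 3 C1qb, C1qc and C1qa were called higher, at 2.88, 1.41 and 0.92 (adjusted p = 0.00123, 0.00789 and 0.0177). They were called higher as well with arrays weighted by quality and without both replicate 3 arrays. No other marker of this list was called in these fits, and Ptprc and Adgre1 had negative estimates in each. None of the 6 endothelial markers was called (0 of 6, means of 5.02 to 5.17 and 4.95 to 5.01), and the defining gene Cdh5 read 4.47 to 4.68. Mural cell markers (0 of 7 called, means of 6.05 to 6.61 and 6.11 to 6.28) and epithelial and mesothelial markers (0 of 7, 5.10 to 5.58 and 5.07 to 5.14) had no call either, nor did 3 Schwann and neural markers (0 of 3, 6.69 to 7.08 and 7.47 to 7.70), of which S100b, also made by adipocytes, had a difference of 2.19 (adjusted p = 0.0911). S100b was called higher in limma without induced replicate 3, with array weights and without both replicate 3 arrays (adjusted p = 0.0456, 0.0237 and 0.0248). The mural marker Notch3 was called higher with array weights alone (adjusted p = 0.0412). The part of cell composition in the results below was not tested, and in bulk RNA fewer cells of a type and less RNA per cell cannot be told apart.

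Over the whole set, 1 of 51 genes passed an adjusted p under 0.05 in limma's fit across all genes. This was the receptor gene Fzd1, which fell. Among all genes 0.749% were called (0.479% higher and 0.27% lower), a share that corresponds to less than 1 gene in a set of this size. The 3 induced values lay wholly on 1 side of the 3 control values for 15 genes (29.4%), against 25.4% of all genes, which is near the background. The directions were uneven within those 15, with 12 lower and 3 higher, where all genes had 13.4% lower and 12% higher. At an unadjusted p under 0.05 in limma were 10 of the 51, where all genes had 17.6%. Without induced replicate 3, 2 of 51 were called, Fzd1 and Nkd2, both lower, where 3.07% of all genes were. The median difference of the set was -0.10, against -0.01 for all genes. Of the 12 genes lying wholly lower in induced cells, 11 were highest on control replicate 3, as were 41.3% of all 2431 genes lying wholly lower. That last count was looked for after the values had been seen. Control replicate 3 had the lowest control mean of the adipocyte markers (6.79, near the 6.93 of control replicate 2). It also had that of the macrophage and leukocyte markers (5.68, with 6.53 and 6.83 on control replicates 1 and 2). Its means of the epithelial and mesothelial markers (5.58, with 5.10 and 5.33) and of the endothelial markers (5.17, with 5.02 and 5.09) were the highest of the control arrays. Of the marker genes lying wholly lower in induced cells, Msln, Cd34, Tek, Col1a1 and Thy1 were highest on control replicate 3. Nt5e, Abcc9 and Kcnj8 were highest on control replicate 2. The part of any of these in the count was not tested. Differences of 2-fold or more were found for 6 of the 51 genes (11.8%, against 4.98% of all genes): Fzd4 at the high end and Fzd1, Fzd2, Nkd2, Sfrp4 and Fzd6 at the low end. Dim genes lower such shares. Among genes with means at or above the median of all array values, 17.1% of 35 in the set and 7.66% of all 11246 differed 2-fold or more. Groups were apart for 34.3% and 33.3% of these.

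**Figure D1:**
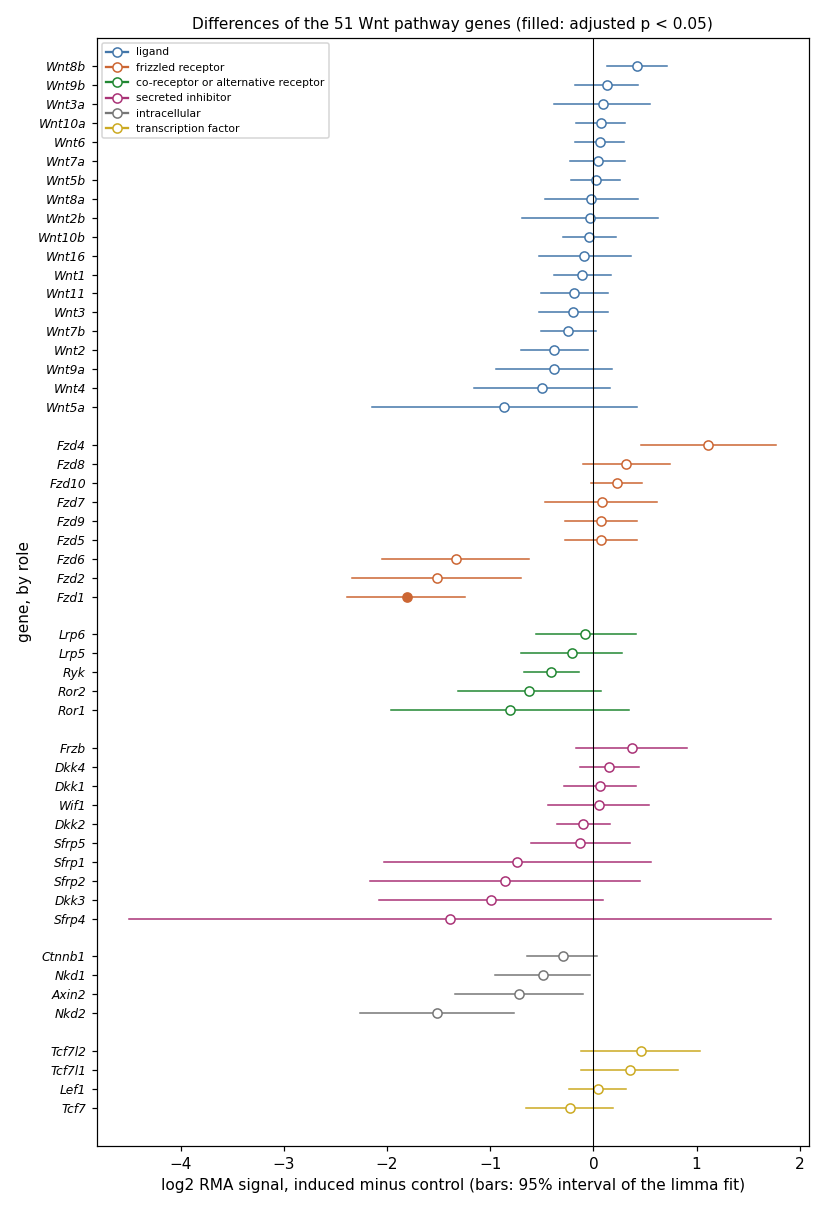
Difference in log2 RMA signal, induced minus control, of each of the 51 genes, grouped by role, with the 95% interval of the limma fit (3 arrays per group). The filled point is the called gene, Fzd1 at -1.81. Frizzled receptors spread from -1.81 to 1.11, while most ligands lie close to 0 and Sfrp4 has the widest interval.

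The frizzled receptors, the transmembrane receptors that bind Wnt ligands, showed the widest spread of directions. With arrays given in the order of their replicate numbers, here and for every gene that follows, Fzd1 read 8.35, 8.53 and 8.99 in control and 6.75, 7.21 and 6.47 in induced cells. All induced arrays lay more than 1 log2 unit below the lowest control array. Fzd1 fell by 1.81 (SE 0.24, 95% interval -2.39 to -1.24, adjusted p = 0.0368), a 3.51-fold lower signal in induced cells. The estimate stayed between -2.01 and -1.63 whichever array was left out, yet the adjusted p rose to 0.0638 without control replicate 1, 0.124 without control replicate 2, 0.0987 without control replicate 3, 0.161 without induced replicate 1 and 0.0795 without induced replicate 2. Without induced replicate 3 it was 0.0187.

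Fzd2 and Fzd6 pointed the same way and missed the threshold over all genes. Fzd2 read 9.76, 10.13 and 10.86 in control and 9.09, 8.92 and 8.19 in induced cells, so the groups did not overlap and the lowest value was on induced replicate 3. Its difference was -1.52 (SE 0.34, adjusted p = 0.106). Fzd6, a receptor known for planar cell polarity, read 6.39, 6.56 and 7.53 in control and 5.31, 5.58 and 5.59 in induced cells. The groups were again apart, with control replicate 3 well above the other control arrays, and the difference was -1.33 (SE 0.30, adjusted p = 0.106). With arrays weighted by quality both genes were called, at adjusted p = 0.0368 for Fzd2 and 0.0375 for Fzd6, in a fit that called 5.11% of all genes. Without both replicate 3 arrays they were called too, with differences of -0.94 and -1.03 (adjusted p = 0.0337 and 0.0202), where 4.07% of all genes were called. C1qa, C1qb and C1qc were called higher in both of these fits, and no other macrophage or leukocyte marker was called. Ptprc and Adgre1 had negative estimates (-0.22 and -0.50 with array weights, -0.62 and -0.66 without both replicate 3 arrays). Those of the other markers in that list were positive. Thy1, a stromal marker, was called lower in both fits. The part of these genes in the result was not tested.

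Fzd4, which also serves as the receptor for norrin, was the gene of the set with the largest positive difference. It read 9.64, 9.50 and 9.07 in control and 10.50, 10.03 and 11.01 in induced cells. Every induced array lay above every control array, and the highest value was on induced replicate 3, the array with the most adipocyte marker signal. The difference was 1.11 (SE 0.27, 95% interval 0.46 to 1.77, adjusted p = 0.122), a 2.16-fold higher mean that did not pass, and it was 0.86 without induced replicate 3 (adjusted p = 0.0983). Ndp, the gene for norrin, had a difference of 0.07 and read 3.63 to 3.81 on all arrays.

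Other frizzled receptors differed little. Fzd10 read 6.21, 6.17 and 6.23 in control and 6.49, 6.33 and 6.46 in induced cells, a small gap of 0.23 (adjusted p = 0.318) between groups that did not overlap. Fzd8 read 5.57, 5.57 and 6.07 in control and 6.23, 5.90 and 6.05 in induced cells. Its groups overlapped, and the difference was 0.32 (SE 0.18, adjusted p = 0.402). Fzd7, Fzd5 and Fzd9 had differences of 0.07 to 0.08, with 95% intervals that reached at most 0.62 and at least -0.47. In all, 5 of 9 frizzled receptors had groups that did not overlap, 3 lower and 2 higher, where 25.4% of all genes did (13.4% lower and 12% higher). Of the 9, 1 had a mean below the median of all array values. Among all genes at or above that median, 33.3% had groups that did not overlap.

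**Figure D2:**
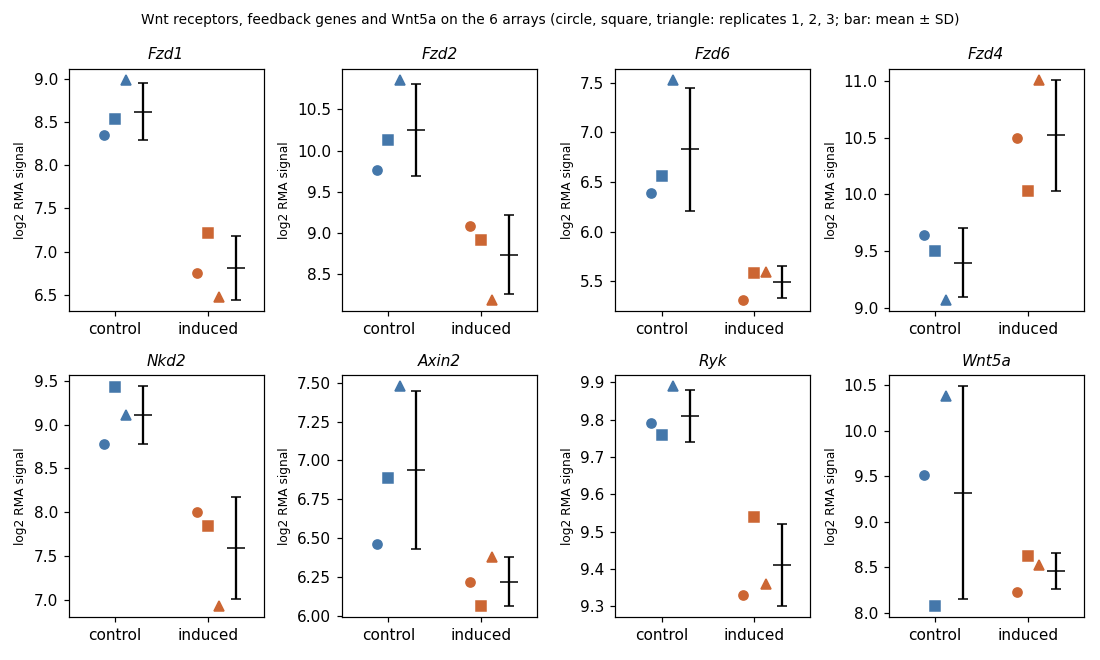
Log2 RMA signal of 8 genes on each of the 6 arrays (circle, square and triangle for replicates 1, 2 and 3; bars, mean ± SD of 3 arrays; each panel has its own axis). Fzd1, Fzd2, Fzd6, Nkd2, Axin2 and Ryk lie lower on all induced arrays, Fzd4 lies higher, and Wnt5a overlaps because control replicate 2 reads 8.07.

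The co-receptors and alternative receptors all had negative estimates, from -0.81 to -0.08, with 0 of 5 called. Among all genes 52.4% had a negative estimate and 0.749% were called. The groups of 2 of the 5 lay apart, both lower, where 13.4% of all genes lay wholly lower. The sign of Lrp6 turned without induced replicate 1 (0.02) or 2 (0.05), and Lrp5 stood at -0.01 without control replicate 2. Lrp6, the co-receptor needed for beta-catenin signalling, read 9.76, 9.76 and 9.82 in control and 9.51, 9.44 and 10.16 in induced cells. Its induced arrays fell on either side of the control values, and the difference was -0.08 (SE 0.20, 95% interval -0.56 to 0.41, adjusted p = 0.888). Lrp5, its close relative, read 8.11, 8.59 and 7.87 in control and 8.04, 7.77 and 8.13 in induced cells and overlapped throughout (difference -0.21, SE 0.21, 95% interval -0.70 to 0.28, adjusted p = 0.666).

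Ryk, an atypical Wnt receptor with a kinase-like domain, had a small gap with little spread. It read 9.79, 9.76 and 9.89 in control and 9.33, 9.54 and 9.36 in induced cells, a difference of -0.41 (SE 0.11, adjusted p = 0.148) between groups that did not overlap. Ror2, a receptor for Wnt5a, read 8.67, 8.63 and 9.15 in control and 8.48, 8.54 and 7.58 in induced cells. The groups were apart, narrowly on replicates 1 and 2, and the difference was -0.62 (adjusted p = 0.333), or -0.31 without induced replicate 3. Ror1 read 9.79, 9.28 and 9.15 in control and 9.19, 9.16 and 7.45 in induced cells. Only its value on induced replicate 3 lay far off, and the difference of -0.81 (adjusted p = 0.446) became -0.23 without that array.

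None of the ligands was called (0 of 19, with 2 at an unadjusted p under 0.05 in limma and 0 called without any of the 6 arrays in turn or with array weights), and 17 of 19 differences lay between -0.50 and 0.13. The mean of 12 of the 19 ligands over the 6 arrays was below 5.69, the median of all array values, as was that of 6920 of 18166 genes. RMA cannot say whether such a feature is above background, and it compresses changes there. Wnt5a, the ligand most tied to signalling without beta-catenin, had the largest difference and the largest spread. It read 9.51, 8.07 and 10.38 in control and 8.23, 8.62 and 8.52 in induced cells. The control arrays spanned more than 2 log2 units and control replicate 2 lay below all induced arrays, so the difference of -0.87 (SE 0.54, 95% interval -2.15 to 0.42, adjusted p = 0.464) did not exceed the spread. It was -1.49 without control replicate 2 and -0.34 without control replicate 3.

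The ligands best known for restraining adipocyte formation read nearly the same in both groups. Wnt10b read 5.18, 5.07 and 5.29 in control and 5.11, 5.21 and 5.09 in induced cells, a difference of -0.04 (SE 0.11, 95% interval -0.30 to 0.22, adjusted p = 0.884). Wnt6 read 6.45, 6.58 and 6.47 in control and 6.53, 6.59 and 6.57 in induced cells (difference 0.06, 95% interval -0.18 to 0.30, adjusted p = 0.807). Wnt10a stood at 0.07 (95% interval -0.17 to 0.31). Wnt10b and Wnt10a read below 5.69, the median of all array values, on every array. For such dim features RMA cannot tell an unchanged gene from a reading of background. Wnt5b, a ligand reported to favour adipocyte formation, read 6.18, 6.11 and 6.07 in control and 6.20, 6.08 and 6.15 in induced cells, with overlapping groups and a difference of 0.02 (SE 0.10, adjusted p = 0.942).

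Among the other ligands, the groups of 4 did not overlap, which makes 21.1% of the 19, below the 25.4% of all genes. Of the 19, 12 had means below the median of all array values, a larger part than among all genes. Wnt8b read 5.08, 5.02 and 4.84 in control and 5.26, 5.45 and 5.49 in induced cells, a difference of 0.42 (SE 0.12, adjusted p = 0.164). Wnt2, Wnt9a and Wnt7b lay lower in induced cells, at -0.38, -0.38 and -0.25 (adjusted p = 0.233, 0.457 and 0.313). Wnt4 read 7.10, 7.85 and 7.51 in control and 7.14, 7.34 and 6.50 in induced cells and overlapped, at -0.50 (adjusted p = 0.409). Wnt1, Wnt2b, Wnt3, Wnt3a, Wnt7a, Wnt8a, Wnt9b, Wnt11 and Wnt16 had differences from -0.20 to 0.13 and overlapping groups.

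Among the secreted inhibitors the largest differences rested mainly on a single array, as did that of Ror1 and, in part, that of Ror2. None was called (0 of 10, and 0 at an unadjusted p under 0.05 in limma), and 4 had estimates between -1.39 and -0.74 that shrank to between -0.44 and 0.12 without induced replicate 3. Sfrp1, a decoy for Wnt ligands, read 12.01, 12.69 and 12.05 in control and 12.24, 12.08 and 10.22 in induced cells. Induced replicates 1 and 2 lay inside the control range, and the difference of -0.74 (SE 0.54, adjusted p = 0.543) became -0.09 without induced replicate 3. Sfrp2 followed the same course, with 11.18, 10.41 and 10.23 in control, 10.32, 10.43 and 8.49 in induced cells and a difference of -0.86 (SE 0.55, adjusted p = 0.475) that became -0.23.

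Sfrp4 had the widest range of the set, reading 8.93, 10.60 and 8.27 in control and 9.04, 9.73 and 4.86 in induced cells. Its difference of -1.39 (SE 1.30, adjusted p = 0.641) turned to 0.12 without induced replicate 3. Dkk3, a divergent member of the Dkk family, read 9.36, 9.55 and 9.83 in control and 9.05, 9.23 and 7.48 in induced cells. Its groups did not overlap even on replicates 1 and 2, and the difference was -0.99 (SE 0.45, adjusted p = 0.321), or -0.44 without induced replicate 3 (adjusted p = 0.231).

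Induced replicate 3 was over 2-fold below the mean of the other induced arrays for 5 of the 51 genes (Sfrp4, Sfrp1, Sfrp2, Ror1 and Dkk3, by -4.53 to -1.66) and over 2-fold above it for 0, against 3.95% below and 4.26% above among all genes. Marker lists moved on this array too. Of 10 stromal markers 8 were lower there, 4 of them over 2-fold (Pdgfra, Lum, Dcn and Pdgfrb, by -2.92 to -1.78), while Thy1 and Cd34 were slightly higher (0.11 and 0.35). Of 11 macrophage and leukocyte markers 9 were lower, 5 of them over 2-fold (Mrc1 by -3.72, C1qb by -2.97, C1qc by -1.72, Tyrobp by -1.68 and Csf1r by -1.20), while Cd68 and Cd3e were higher by 0.80 and 0.07. Of 10 adipocyte markers 9 were higher, by 0.27 to 1.98 and 6 of them over 2-fold, and Lep was lower by -0.53. The part of the cell mixture of that culture in the inhibitor values was not tested.

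**Figure D3:**
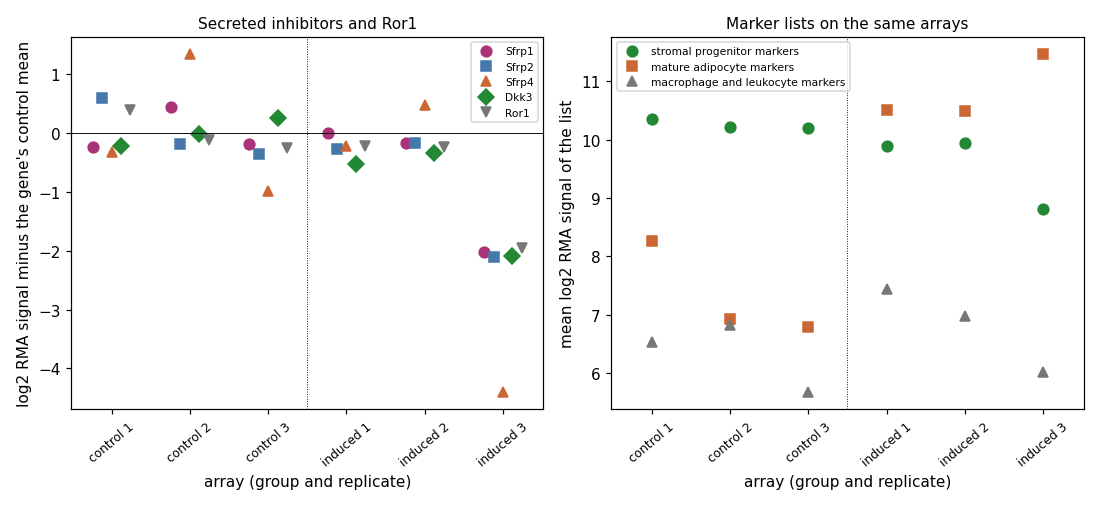
Left, log2 RMA signal of Sfrp1, Sfrp2, Sfrp4, Dkk3 and Ror1 on each array, minus the gene's own control mean (line at 0). Right, mean log2 RMA signal of the stromal progenitor, mature adipocyte and macrophage and leukocyte marker lists on the same arrays. On induced replicate 3 all 5 genes and the stromal list (8.82) are at their lowest and the adipocyte list (11.47) is at its highest.

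The remaining inhibitors overlapped between the groups. Dkk1, which blocks Lrp5 and Lrp6, read 5.29, 5.62 and 5.55 in control and 5.52, 5.75 and 5.39 in induced cells, a difference of 0.06 (SE 0.15, 95% interval -0.29 to 0.41, adjusted p = 0.872). Sfrp5, an inhibitor known from fat tissue, read 5.60, 6.00 and 5.99 in control and 5.69, 6.08 and 5.44 in induced cells, a difference of -0.13 (SE 0.20, adjusted p = 0.8). Frzb, a relative of the Sfrp genes, read 5.64, 5.54 and 6.00 in control and 6.06, 5.73 and 6.50 in induced cells, at 0.37 (SE 0.22, adjusted p = 0.454). Dkk4 read 5.22, 5.26 and 5.30 in control and 5.39, 5.27 and 5.58 in induced cells, at 0.15 (SE 0.12, adjusted p = 0.565). Dkk2 and Wif1 stood at -0.10 and 0.05.

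The 4 intracellular genes all had negative estimates, and 3 of them had groups that did not overlap, all lower, where 52.4% of all genes had a negative estimate and 13.4% lay wholly lower. Nkd2, which binds dishevelled and dampens Wnt signalling, had the largest. It read 8.78, 9.43 and 9.11 in control and 8.0, 7.85 and 6.93 in induced cells. All induced arrays were below control and induced replicate 3 was lowest. The difference was -1.52 (SE 0.31, 95% interval -2.26 to -0.77, adjusted p = 0.0933) and did not pass. Nkd2 was called without induced replicate 3 (-1.18, adjusted p = 0.0339, with 3.07% of all genes called). It was called too with array weights (-1.36, adjusted p = 0.0209) and without both replicate 3 arrays (-1.18, adjusted p = 0.0375). These 3 fits also called C1qa, C1qb and C1qc higher, and no other macrophage or leukocyte marker. Of the stromal markers they called only Thy1, lower.

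Axin2 and Nkd1 are feedback genes that beta-catenin switches on in many tissues. Axin2 read 6.46, 6.89 and 7.48 in control and 6.22, 6.06 and 6.38 in induced cells. The highest induced array came close to control replicate 1 without reaching it, and the difference was -0.72 (SE 0.26, 95% interval -1.34 to -0.10, adjusted p = 0.232), or -0.45 without control replicate 3 (adjusted p = 0.426). Nkd1 read 6.65, 7.16 and 7.31 in control and 6.42, 6.72 and 6.50 in induced cells. Its groups overlapped at control replicate 1, and the difference was -0.49 (SE 0.19, adjusted p = 0.262). For both genes control replicate 3 was the highest array and control replicate 1 the lowest control array. Ctnnb1 itself read 10.86, 10.78 and 10.99 in control and 10.63, 10.75 and 10.34 in induced cells, a difference of -0.30 (SE 0.14, adjusted p = 0.329) between groups set apart by a narrow gap. An array of this kind measures its RNA, while beta-catenin is controlled mainly as a protein.

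A promoter window was found for 39 of the 51 genes in the RefSeq table of rat assembly GRCr8 (250 bases before to 50 after the start of the gene). The core letters bound by Tcf and Lef factors, CTTTGAT, were searched on both strands, the other strand reading ATCAAAG. They stood in the windows of Axin2, Nkd1 and Tcf7, 3 of 39 (7.69%), against 3.63% of all 33469 windows. In 73 further pathway genes with a window they were found once, in Sp5. The bases before the start are shown for the feedback genes Axin2 (chr10:94398535-94398784, plus strand) and Nkd1 (chr19:34722847-34723096, minus strand), which hold the core, and for the called gene Fzd1 (chr4:30264824-30265073, plus strand), which does not. Each run has 250 bases, reads 5′ to 3′ along the gene and ends just before its start, and capitals mark the core.
Axin2: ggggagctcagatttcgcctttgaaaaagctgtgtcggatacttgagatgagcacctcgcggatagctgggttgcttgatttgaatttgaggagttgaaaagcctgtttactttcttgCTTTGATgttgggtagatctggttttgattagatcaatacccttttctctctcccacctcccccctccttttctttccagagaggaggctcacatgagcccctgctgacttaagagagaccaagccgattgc
Nkd1: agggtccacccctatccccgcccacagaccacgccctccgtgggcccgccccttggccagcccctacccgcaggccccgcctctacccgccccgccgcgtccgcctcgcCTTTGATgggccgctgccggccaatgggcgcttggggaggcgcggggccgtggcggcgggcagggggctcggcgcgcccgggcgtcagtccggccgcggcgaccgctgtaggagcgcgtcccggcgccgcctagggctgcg
Fzd1: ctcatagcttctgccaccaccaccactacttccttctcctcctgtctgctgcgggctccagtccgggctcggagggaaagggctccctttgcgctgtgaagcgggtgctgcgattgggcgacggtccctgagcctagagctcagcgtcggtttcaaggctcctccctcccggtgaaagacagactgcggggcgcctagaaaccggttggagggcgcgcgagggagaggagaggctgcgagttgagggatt
Counted from the start of the gene, with the bases before it negative, the core lay at position -132 in Axin2 and -141 in Nkd1. These stretches differed in composition, with 47.6% G and C bases in Axin2, 80.0% in Nkd1 and 63.6% in Fzd1, where the median of all windows was 51.2%. A match of letters is a description of the sequence and says nothing of binding in these cells.

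Of the nuclear factors 0 of 4 were called, and all 4 had overlapping groups. Tcf7l2, the partner of beta-catenin most studied in metabolic tissues, read 8.0, 7.38 and 7.65 in control and 8.06, 7.78 and 8.55 in induced cells (difference 0.46, SE 0.24, 95% interval -0.12 to 1.03, adjusted p = 0.389). Tcf7l1, which often acts as a repressor, read 7.94, 7.87 and 7.78 in control and 8.62, 8.17 and 7.87 in induced cells. Induced replicate 3 fell within its control range, and the difference was 0.35 (SE 0.20, adjusted p = 0.411). Tcf7, itself a common target of the pathway, stood at -0.23 (adjusted p = 0.556), and Lef1 at 0.04 with values of 4.27 to 4.53 on all arrays.

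Beyond these genes, 101 of 111 listed genes of the same pathway were measured. Of these 2 passed, Apcdd1 and Met, both higher, where 0.749% of all genes were called and 0.479% called higher. Estimates were negative for 71 of the 101 (70.3%, against 52.4% of all genes), with a median of -0.14. Apcdd1, a membrane protein that binds Wnt and Lrp5 and inhibits the pathway, read 5.65, 5.03 and 4.65 in control and 7.42, 7.38 and 7.80 in induced cells. No induced array came near the control range, and the gene rose by 2.42 (SE 0.27, 95% interval 1.79 to 3.06, adjusted p = 0.0231), 5.36-fold. Met, the receptor for hepatocyte growth factor, read 6.71, 7.04 and 6.06 in control and 8.69, 8.54 and 8.67 in induced cells. It rose by 2.03 (SE 0.25, adjusted p = 0.0289), 4.08-fold, against the direction of most of the target genes it was listed with. Both estimates kept their size without any array (2.20 to 2.69 for Apcdd1 and 1.75 to 2.25 for Met). Apcdd1 no longer passed if control replicate 2 (adjusted p = 0.0944) or 3 (0.0664) or induced replicate 1 (0.108) or 2 (0.102) was left out, nor did Met if control replicate 1 (0.0697) or 2 (0.0541) or induced replicate 1 (0.152) or 2 (0.119) was.

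In the list for Wnt secretion and R-spondins 0 of 11 genes passed, with a median of 0.06. Lgr5, a receptor for R-spondins, which strengthen Wnt signals by keeping frizzled receptors at the surface, read 9.52, 8.03 and 8.72 in control and 6.62, 6.53 and 5.18 in induced cells. All induced arrays lay more than 1 log2 unit below control, and the difference was -2.65 (SE 0.50, adjusted p = 0.0815). Without induced replicate 3 Lgr5 was called, at -2.19 (adjusted p = 0.0403). Rspo1, which encodes such an R-spondin, read 8.66, 9.36 and 10.49 in control and 8.13, 7.97 and 7.44 in induced cells, at -1.66 (SE 0.45, adjusted p = 0.15). Among the 14 other extracellular regulators Apcdd1 was the 1 called gene, while 9 estimates were negative (median -0.26).

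In the destruction complex and cytoplasmic list 0 of 21 passed, 17 estimates being negative (median -0.13). Its core members differed little, Gsk3b by -0.03 and Apc by -0.08. Dact1, which binds dishevelled, read 7.68, 7.64 and 8.30 in control and 6.28, 6.84 and 6.21 in induced cells, at -1.43 (SE 0.25, adjusted p = 0.0664). With array weights and without both replicate 3 arrays Dact1 was called lower (adjusted p = 0.0263 and 0.0342). Those fits called 5.11% and 4.07% of all genes. Amer1, a membrane adaptor for Apc, stood at -0.90 (adjusted p = 0.178). Among nuclear cofactors and repressors of beta-catenin 0 of 17 passed (median -0.08). Pygo1 and Bcl9, which work together on beta-catenin, stood at -1.27 and -0.64 (adjusted p = 0.121 and 0.224). Without induced replicate 3 Pygo1 was called lower, at -0.90 (adjusted p = 0.0217). The same held with array weights and without both replicate 3 arrays (adjusted p = 0.0304 and 0.0294), while Bcl9 was not called in these fits. Among planar polarity and other genes that act without beta-catenin 0 of 16 passed (median -0.14), with Prickle1 at -1.14 and the calcium-dependent kinase Camk2d at -0.72 (adjusted p = 0.17 and 0.106). Of 22 textbook target genes 1 was called, Met, while 17 had negative estimates and the list median was -0.33. The mean signal of the target list was lowest on induced replicate 3, with a mean of 7.33, where induced replicates 1 and 2 had 7.96 and 7.90 and control arrays 7.93 to 8.25. The lowest control mean thus lay between those of induced replicates 1 and 2.

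**Figure D4:**
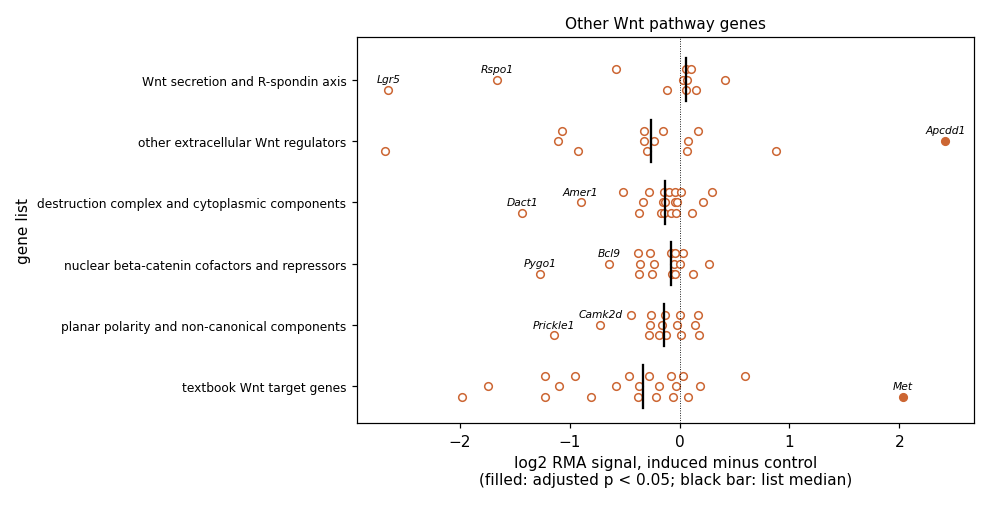
Difference in log2 RMA signal, induced minus control, of 101 further Wnt pathway genes in 6 lists (points; filled where adjusted p was under 0.05; black bars, list medians). Apcdd1 at 2.42 and Met at 2.03 are called, while Cthrc1 at -2.68 (unlabelled) and Lgr5 at -2.65 lie at the low end. Labelled genes follow the naming rule of each list.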

How the data were processed

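RNA of 6 cultures was measured on 1-colour Affymetrix arrays, from biotin-labelled cRNA that was made, per the labels' protocols, with 6 µg of total RNA. Per the submitters' processing notes the deposited values are RMA signals. Their range shows a log2 scale, as the authors deposited it. RMA's version and the build behind the features are not given in the sources used here. The small number of arrays limits the precision. Of 36685 features 18511 had 1 gene symbol and were reduced to 18166 genes by the highest mean over the arrays. The comparison used limma 3.58.1 under R 4.3.3 (moderated linear model with lmFit and eBayes, two-sided, no block, 4 residual and 2.65 prior degrees of freedom), with Benjamini-Hochberg adjustment over all genes and a call at an adjusted p under 0.05. Levels are single arrays or mean ± SD, and differences carry the standard error (SE) of the fit. An exact permutation test of 3 against 3 cannot go below 0.1 and was not used. The fit was tested on simulated data.

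The 51 genes, the 6 pathway lists and the 7 marker lists were chosen with earlier results of these data known. Values on every array were given for called genes, the 8 largest positive and 8 largest negative differences and 12 genes always given. Other members with values on every array, and Gsk3b, Apc, Ndp, Sp5 and the marker genes with values, lie outside this rule and were chosen after values were seen. From each pathway list the called genes (at most 4) were named, or with none called the 2 with the largest absolute difference. Promoter sequences are RefSeq's, of GRCr8. Alternatives covered the replicate block, leaving out arrays, feature choice, scaling, a filter on dim genes, array weights, the prior and testing over features.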

Additional observations from a re-analysis of the deposited data

How the results depend on the processing

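Counts moved with the arrays used: 2 to 557 of all genes, 0 to 2 of the 51 Wnt genes and 0 to 7 of the pathway list genes were called with 1 array left out. Array quality weights called 929 genes, 4 of the Wnt genes (Fzd1, Fzd2, Fzd6 and Nkd2, all lower) and 9 pathway list genes. Without both replicate 3 arrays these were 740, 4 (the same 4) and 10. Tested over all 36685 features, 69 features and 0 Wnt genes were called (Fzd1 at adjusted p = 0.0608). With the replicate number as a block, 12 genes, 0 Wnt genes and 0 pathway list genes were called (Fzd1 at adjusted p = 0.0854). The labels do not say that a number marks a shared source, and the arrays were not taken as pairs: deviations of same-numbered arrays correlated at 0.02, 0.12 and 0.15. Control and induced replicate 3 were each other's best match and induced replicate 2 matched control replicate 2 best, while the remaining arrays matched another number best.

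Feature choice, centring, repeated quantile normalization, the filter at a group mean of 6 and the other prior left 1 Wnt gene called, Fzd1, at adjusted p = 0.032 to 0.0368. Each Wnt gene had 1 array feature, so the other feature choices left the values of the Wnt genes unchanged. Under them the number of Wnt genes with groups apart was bound to stay at 15. The call of Fzd1 could move there only through the other genes in the fit and the adjustment. With the filter, the number of Wnt genes with groups apart was 12. Of 36 named genes 30 kept their sign in every alternative run. The sign turned, at sizes near 0 apart from Sfrp4, with arrays left out for Dkk1 (-0.03 to 0.15), Lrp6 (-0.31 to 0.05), Sfrp4 (-2.32 to 0.12), Sfrp5 (-0.30 to 0.02), Wnt10b (-0.10 to 0.01) and Wnt5b (-0.01 to 0.05), and without both replicate 3 arrays for Sfrp5 (0.08), Wnt10b (0.03) and Wnt5b (0.00). The cause was not tested beyond the arrays left out. RMA gives no signal over background, which limits what can be said of dim ligands.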

Other observations

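Further genes of the pathway lists had large differences outside the naming rule and were picked here after their values were seen. Cthrc1, a secreted collagen-like protein that aids Wnt binding to its receptors, read 9.83, 10.25 and 11.24 in control and 7.86, 8.42 and 6.99 in induced cells. Its difference was -2.68 (SE 0.47, adjusted p = 0.0672), and without induced replicate 3 it was called at -2.30 (adjusted p = 0.0378). Ccn4, a matricellular protein first known as a Wnt-induced gene, read 10.01, 10.64 and 11.13 in control and 8.82, 8.89 and 8.13 in induced cells, at -1.98 (SE 0.33, adjusted p = 0.062). Runx2, the master factor of bone formation, read 8.74, 8.62 and 9.30 in control and 7.86, 7.53 and 7.60 in induced cells, at -1.22 (SE 0.20, adjusted p = 0.0614). Without induced replicate 3 Ccn4 and Runx2 were called too (adjusted p = 0.0372 and 0.0468). For all 3 genes the groups did not overlap and control replicate 3 was the highest array.

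The Wnt genes varied more between control cultures than genes at large, with a median SD of 0.23 against 0.15, while in induced cultures both medians were 0.18. These medians were not matched for signal level. Of the 51 genes 16 had means below the median of all array values, as had 6920 of 18166 genes.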
